A study of Mus musculus with 6 samples.

Results

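The genes described here are 37 genes of homologous recombination, the Fanconi anaemia pathway and the DNA damage checkpoint, read as rows of a table of 14986 gene symbols from mouse long-term haematopoietic stem cells. They were chosen by name, from a list drawn up with earlier results of these data known, and all 37 were in the table. The libraries comprised 3 labelled Zcchc8 KO and 3 labelled wild type (WT), each from polyadenylated RNA of 1500 sorted cells of lineage-depleted bone marrow, with cDNA amplified before the library was made. ZCCHC8 holds together the nuclear exosome targeting complex, which brings unstable nuclear RNA to the exosome for decay. The series title ties this complex to genome integrity and R loops, RNA paired with DNA behind a polymerase. The comparison asks how the genes that mend broken DNA were expressed in the libraries labelled KO. How the knockout was made, the cells in which it acts, the age and sex of the mice, the number of animals behind a library and the surface markers of the sort are not stated in the labels. The labels do not tie replicates to separate animals, so p-values rest on a spread between libraries that could be technical.

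Homologous recombination copies a broken DNA end from the sister chromatid. The broken ends are trimmed to single strands, RPA coats them, and BRCA1, PALB2 and BRCA2 act after it to prepare the strand for pairing with the sister. The Fanconi anaemia pathway uses a ubiquitin ligase of many subunits to mark the FANCD2 and FANCI pair where DNA strands are crosslinked, and hands the lesion to the same machinery. ATM and ATR are the kinases that sense breaks and single strands, and CHEK2 and CHEK1 are the kinases they switch on to hold the cell cycle. Inherited loss of Fanconi genes causes bone marrow failure, and mouse stem cells lacking some of these genes are depleted. Many of these genes are transcribed mainly in S phase, when the sister chromatid is present, and long-term stem cells are mostly quiescent.

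Many promoters of the genes held a sequence feature that the choice by name did not use. RefSeq windows (GRCm38.p6) of 300 bases, from 250 before to 50 after the transcription start, were at hand for 29 of the 37 genes. A core of the E2F site, the element of S-phase genes searched here as TTCCCGC or TTGGCGC on both strands, was present in 15 of these 29 windows (51.7%), against 1104 of the 8535 windows of genes tested (12.9%) and 1874 of all 27025 windows (6.93%). Median GC content was 59.7% in the 29 windows and 60.7% in the windows of tested genes. Among windows of 50 to 70% GC, 15 of 27 of the repair genes held the core (55.6%) and 809 of 6168 of the tested genes (13.1%). The 15 genes were Brca1, Bard1, Brca2, Rad52, Rpa2, Rpa3, Fancb, Fancf, Fancg, Fancm, Ube2t, Fanci, Atm, Chek1 and Chek2. The CCAAT box, searched as CCAAT, was present in 18 of 29 (62.1%) against 40.2% of windows of tested genes. The CHR element of mitotic genes, searched as TTTGAA, was present in 2 of 29 (6.9%) against 12.4%. The proliferation list used below held the E2F core in 8 of 21 windows (38.1%), the CCAAT box in 16 (76.2%) and the CHR in 7 (33.3%). The further repair genes described below held the E2F core in 20 of 64 windows (31.2%), the CCAAT box in 33 (51.6%) and the CHR in 7 (10.9%). A match of letters is a description and does not show that a factor binds there.

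The windows of the 3 genes whose levels differed most by the unadjusted test are shown here 5′ to 3′ on the strand of the gene, with E2F core matches in capitals. That of Rpa2 (chr4:132768110-132768409, plus strand) holds 1 core, starting 37 bases before the transcription start. That of Fancf (chr7:51862218-51862517, minus strand) holds 1, starting 121 bases before it and overlapping a CCAAT box by its last bases. That of Fance (chr17:28313280-28313579, plus strand) holds no match to these letters.
Rpa2: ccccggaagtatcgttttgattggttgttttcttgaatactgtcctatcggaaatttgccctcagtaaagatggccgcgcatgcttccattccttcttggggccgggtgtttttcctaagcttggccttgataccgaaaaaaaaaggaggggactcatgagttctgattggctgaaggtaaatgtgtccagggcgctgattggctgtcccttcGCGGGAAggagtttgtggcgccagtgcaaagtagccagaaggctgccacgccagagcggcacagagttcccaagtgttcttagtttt
Fancf: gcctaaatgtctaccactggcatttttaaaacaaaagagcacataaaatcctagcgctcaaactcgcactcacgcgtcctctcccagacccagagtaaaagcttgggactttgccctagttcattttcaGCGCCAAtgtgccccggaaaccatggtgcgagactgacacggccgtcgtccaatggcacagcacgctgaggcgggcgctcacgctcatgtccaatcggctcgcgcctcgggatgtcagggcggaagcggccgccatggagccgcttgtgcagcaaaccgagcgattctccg
Fance: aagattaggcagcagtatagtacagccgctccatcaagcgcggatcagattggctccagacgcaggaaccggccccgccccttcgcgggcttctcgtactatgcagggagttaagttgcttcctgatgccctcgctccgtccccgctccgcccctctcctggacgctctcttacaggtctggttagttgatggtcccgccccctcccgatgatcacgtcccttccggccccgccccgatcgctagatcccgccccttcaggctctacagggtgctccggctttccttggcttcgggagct

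**Figure D1:**
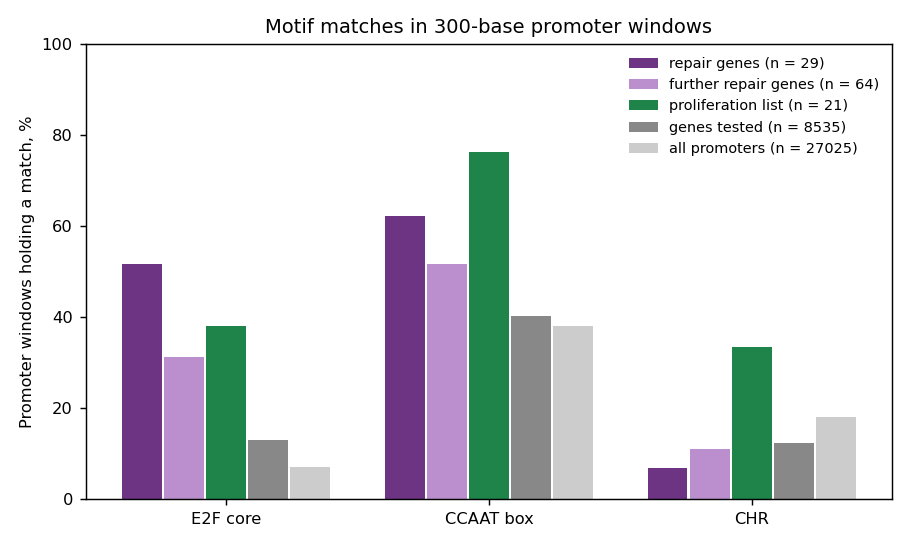
Share of 300-base promoter windows (vertical axis, %) that hold a match to each of 3 motifs, for the repair genes, the further repair genes, the proliferation list, the genes tested and all promoters. The E2F core is in 51.7% of the repair gene windows and 12.9% of those of tested genes, while the CHR is in 6.9% and 12.4%.

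None of the repair genes passed the test between KO and WT libraries. Levels are given in FPKM, read counts divided by exon length and library depth. The test was limma on log2(FPKM + 1) for genes averaging at least 1 FPKM, adjusted over all 11837 genes tested. Of the 37 genes, 31 reached that mean and 0 passed an adjusted p of 0.05, where 0.228% of all tested genes did, and the smallest adjusted p among them was 0.454. At an unadjusted p of 0.05 there were 3 of 31, or 9.68%, against 9.2% of all tested genes. These 3 were Rpa2 and Fancf, higher in KO as were 4.87% of all tested genes, and Fance, lower in KO as were 4.33%. By value 17 were higher in KO and 14 lower, where 50.2% of all tested genes were higher. The median log2 change was 0.029, against 0.002 over all tested genes, and the quartiles were -0.21 and 0.33, against -0.26 and 0.23. The groups did not overlap for 1 of the 31, Rpa2, or 3.23%, against 15.2% of all tested genes. With 3 libraries against 3, the exact permutation test cannot give a p under 0.1.

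**Figure D2:**
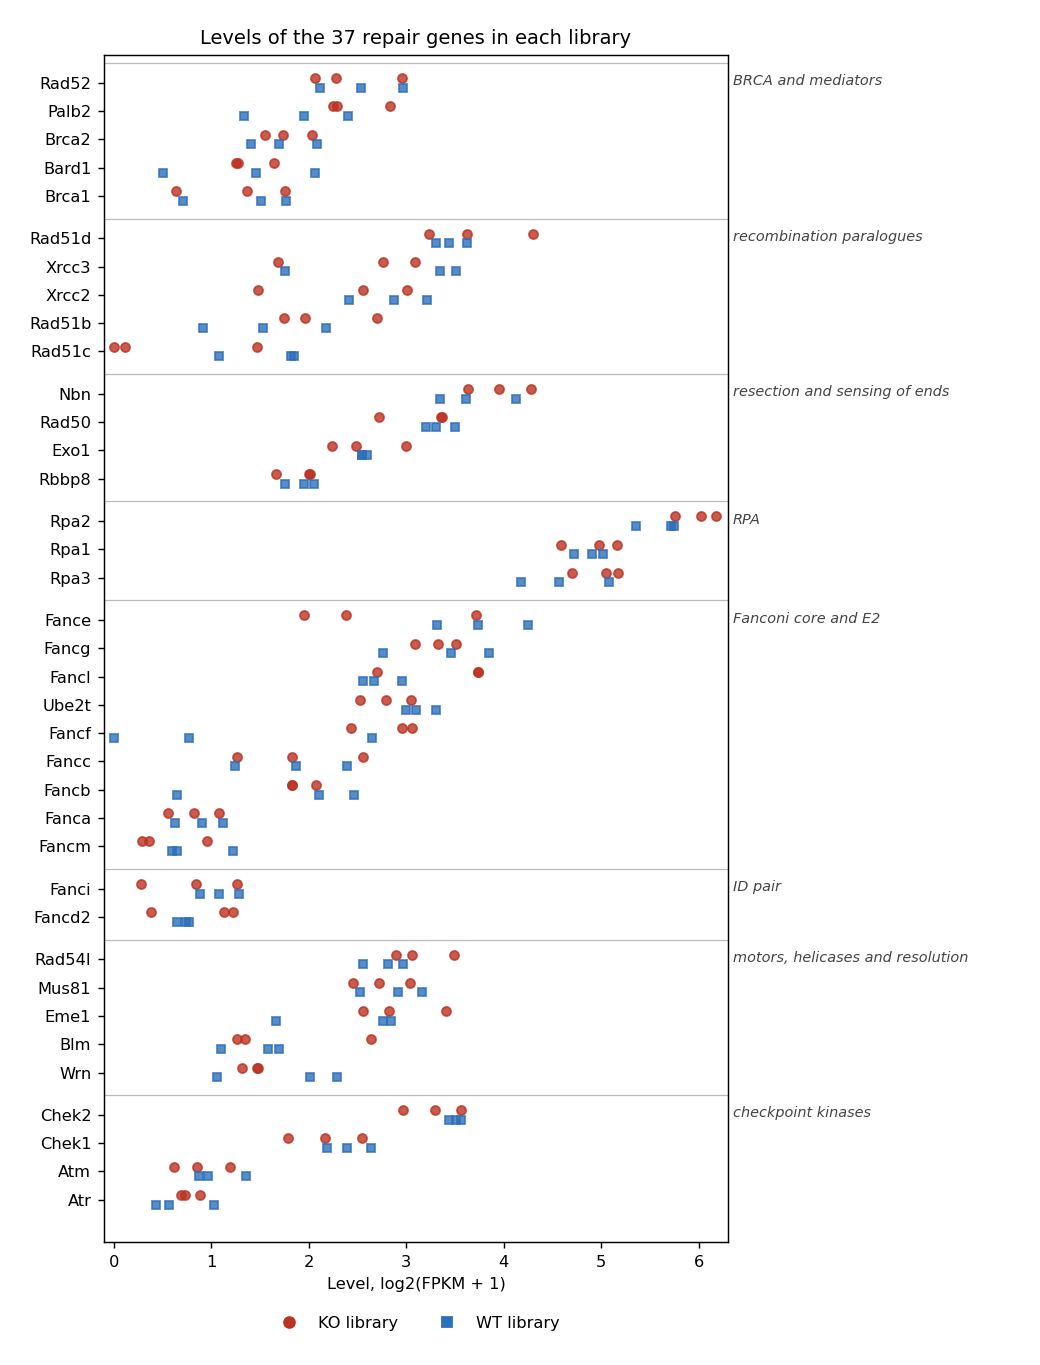
Level of each of the 37 genes, as log2(FPKM + 1) on the horizontal axis, in each KO library (circles) and WT library (squares), with genes down the page grouped by role. The RPA genes stand highest, and the circles and squares overlap for every tested gene but Rpa2.

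The interval of the difference says how large a change the data leave possible. For 16 of the 31 genes, or 51.6%, the 95% interval lay within a 2-fold change either way on the log2(FPKM + 1) scale, against 53.7% of all tested genes. They included the 4 genes of end resection, all 3 RPA genes and both tested checkpoint kinases. For the other 15, a 2-fold change in at least 1 direction lay inside the interval or, for Fancf, Fance and Rad51c, the estimate itself was past it. The scale understates the change of low genes, and 26 of the 31 had a mean of 1 to 10 FPKM.

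**Figure D3:**
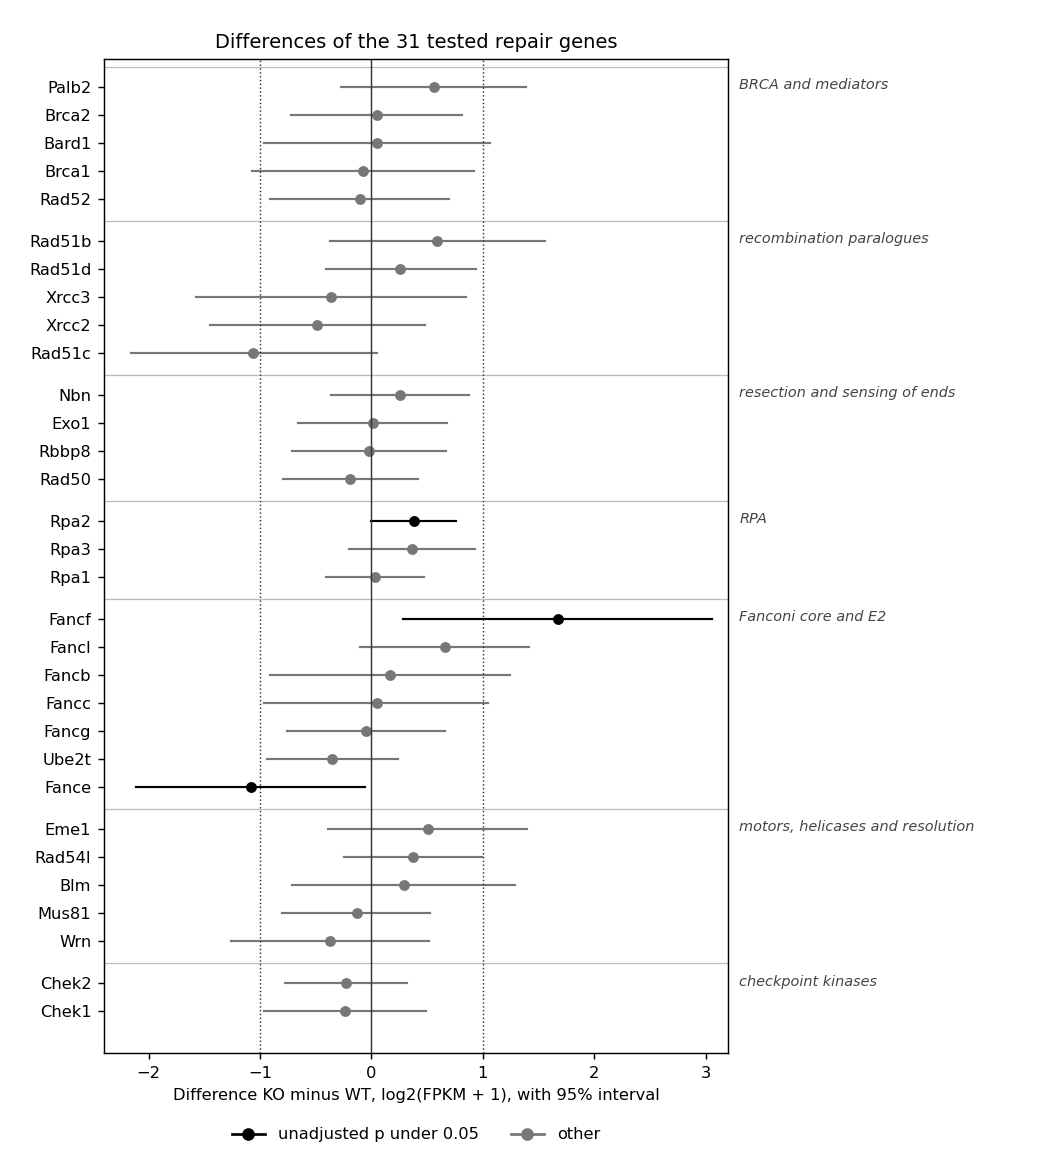
Difference between KO and WT in log2(FPKM + 1), with its 95% interval, for the 31 tested genes by role, where dotted lines mark a 2-fold change. The intervals of Fancf, Fance and Rpa2 leave out 0, the last by a margin that rounds to 0.00.

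RPA, the trimer that coats single-stranded DNA, was the most abundant group. Its 3 genes made up 41.7% of the summed FPKM of the 37, and Rpa2 stood at the 91.6th percentile of all genes in the table. Rpa2 encodes the middle subunit, which checkpoint kinases phosphorylate. It measured 53.1, 71.4 and 64.2 FPKM in KO libraries 1 to 3, against 51.7, 52.6 and 39.9 FPKM in WT libraries 1 to 3. Every KO value was above every WT value, the lowest of them by less than 1 FPKM. The ratio of means was 1.31 and the log2 change 0.38 ± 0.17 (SE), with a limma unadjusted p of 0.04996, an adjusted p of 0.542 and an exact permutation p of 0.1. With each library left out in turn, the log2 change of Rpa2 ran from 0.26, without WT library 3, to 0.50, without KO library 1, and the limma unadjusted p, 0.0229 to 0.174, was 0.05 or more in 4 of the 6 fits. Rpa3, the smallest subunit, averaged 30.7 ± 5.1 FPKM in KO and 24.2 ± 7.94 in WT (SD, n = 3), and Rpa1, the large DNA-binding subunit, 29.5 ± 5.92 and 28.6 ± 3.08. The limma log2 changes were 0.36, with an interval of -0.20 to 0.93, for Rpa3 and 0.03, with an interval of -0.41 to 0.47, for Rpa1. The difference of Rpa2 lay in a group whose other subunits overlapped between KO and WT.

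The BRCA genes and the other mediators were low, and none had groups apart. Brca1, a ubiquitin ligase and scaffold, measured 1.58, 2.37 and 0.557 FPKM in KO and 0.636, 1.84 and 2.41 FPKM in WT. Its obligate partner Bard1 measured 1.42, 2.13 and 1.39 FPKM in KO and 0.421, 3.19 and 1.74 FPKM in WT. WT library 1 was the lowest WT library for both partners, and KO library 2 the highest KO library for both. Brca2, which PALB2 brings to the break, stood at 3.1, 2.34 and 1.93 FPKM in KO and 3.23, 2.24 and 1.66 FPKM in WT, a log2 change of 0.05 with an interval of -0.72 to 0.81. Palb2, which joins BRCA1 to BRCA2, measured 6.13, 3.89 and 3.75 FPKM in KO and 2.87, 1.53 and 4.29 FPKM in WT, and its interval of -0.27 to 1.39 held 0. Rad52, an annealing protein, was the highest of the 5, at 3.85, 3.19 and 6.76 FPKM in KO and 6.8, 4.81 and 3.32 FPKM in WT. The summed FPKM of the 5 averaged 14.8 ± 1.13 in KO and 13.7 ± 0.269 in WT (SD, n = 3).

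Rad51b, Rad51c, Rad51d, Xrcc2 and Xrcc3, related genes whose proteins work in complexes during recombination, spread widely between libraries. Rad51d was the highest, at 11.3, 18.7 and 8.43 FPKM in KO and 8.89, 11.3 and 9.85 FPKM in WT. Rad51c, shared by both complexes of these paralogues, measured 0.0799 and 1.77 FPKM in KO libraries 1 and 3 and was listed at 0 in KO library 2, against 2.61, 1.11 and 2.53 FPKM in WT. These values stood on 9, 0 and 162 reads in KO and 207, 89 and 210 in WT. KO libraries 1 and 2 were below every WT library, and KO library 3 was above WT library 2. The log2 change was -1.06 ± 0.49 (SE), with a limma unadjusted p of 0.0584, an adjusted p of 0.557 and an exact permutation p of 0.2. With each of the 6 libraries left out in turn, the limma log2 change of Rad51c ran from -1.53, without KO library 3, to -0.79, without KO library 2. The unadjusted p ran from 0.00846 to 0.172 in these fits, and the lowest adjusted p was 0.35. Its partner Xrcc3 measured 5.76, 7.54 and 2.22 FPKM in KO and 10.4, 9.2 and 2.37 FPKM in WT, where library 3 was the lowest of each group. Xrcc2 stood at 4.87, 1.79 and 7.03 FPKM in KO and 4.34, 8.26 and 6.31 FPKM in WT. Rad51b measured 2.89, 5.5 and 2.35 FPKM in KO and 3.52, 1.89 and 0.887 FPKM in WT. The median within-group SD of the 5 was 0.62 in log2(FPKM + 1), against 0.44 for the 31 genes.

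Genes that sense and trim broken ends overlapped between KO and WT. Nbn and Rad50 encode partners in the complex that grips the ends. Nbn measured 18.4, 14.5 and 11.4 FPKM in KO and 9.18, 16.4 and 11.2 FPKM in WT, and Rad50 averaged 8.05 ± 2.12 FPKM in KO and 9.12 ± 1.04 in WT (SD, n = 3). Rbbp8, whose protein CtIP starts resection, averaged 2.75 ± 0.496 FPKM in KO and 2.79 ± 0.388 in WT, and the exonuclease gene Exo1, which extends it, 5.09 ± 1.69 and 4.92 ± 0.129. The log2 changes of these 4 genes ran from -0.19 to 0.26, with limma adjusted p of 0.814 or more.

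The Fanconi core genes, whose proteins form the ubiquitin ligase, held both of the widest differences in log2(FPKM + 1), in opposite directions. By ratio of KO to WT means, Rad51c, outside this group, was lower than Fance, at 0.296 against 0.489. Fancf, an adaptor of the core in a gene of 1 exon (chromosome 7, 51860577 to 51862267, GRCm38), measured 7.31, 6.74 and 4.4 FPKM in KO and 0.711 and 5.29 FPKM in WT libraries 2 and 3, and was listed at 0 in WT library 1. The reads behind these values were 318, 216 and 155 in KO and 0, 22 and 169 in WT. WT library 3 was above KO library 3, so the groups overlapped, and WT libraries 1 and 2 were far below the other 4 libraries. The log2 change was 1.67 ± 0.61 (SE), with a limma unadjusted p of 0.0236, an adjusted p of 0.454 and an exact permutation p of 0.2. With each library left out in turn, the log2 change of Fancf ran from 1.1, without WT library 1, to 2.43, without WT library 3. The limma unadjusted p was 0.05 or more in 4 of these 6 fits, up to 0.0856, and the adjusted p ran from 0.141 to 0.674. Of its exon bases 15% are also exon of Gas2 on the opposite strand, and Gas2 measured 0, 1.59 and 1.45 FPKM in KO and 1.21, 1.25 and 2.1 FPKM in WT.

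Fance, which joins the core to FANCD2, measured 12.1, 2.87 and 4.23 FPKM in KO and 12.3, 18 and 8.98 FPKM in WT. KO libraries 2 and 3 were below every WT library, and KO library 1 lay among them. The log2 change was -1.08 ± 0.45 (SE), with a limma unadjusted p of 0.041, an adjusted p of 0.515 and an exact permutation p of 0.2. Fancl, the catalytic subunit of the ligase, showed the reverse arrangement, at 5.49, 12.3 and 12.3 FPKM in KO and 4.89, 6.76 and 5.38 FPKM in WT, where KO libraries 2 and 3 were above every WT library and KO library 1 lay among them. Its log2 change was 0.66 ± 0.33 (SE), with a limma unadjusted p of 0.081 and an adjusted p of 0.593. Of its exon bases 13.7% are exon of Vrk2 on the opposite strand, which stayed at 0.963 to 3.31 FPKM over the 6 libraries. Both genes depended on single libraries. With each left out in turn, the log2 change of Fance ran from -1.60, without KO library 1, to -0.72, without KO library 2, with limma unadjusted p of 0.002 to 0.143, at 0.05 or more in 4 of the 6 fits. That of Fancl ran from 0.49, without KO library 2 or 3, to 1.0, without KO library 1, with limma unadjusted p of 0.00753 to 0.234, at 0.05 or more in 5 of the 6. The lowest limma adjusted p was 0.274 for Fance and 0.378 for Fancl.

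**Figure D4:**
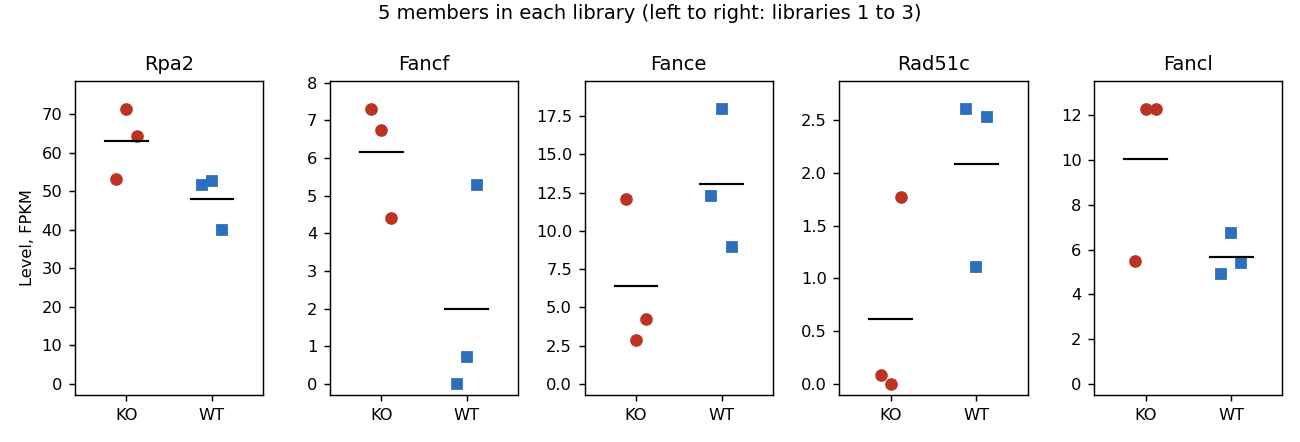
Level in FPKM (linear vertical axis that includes 0) of Rpa2, Fancf, Fance, Rad51c and Fancl in the KO libraries (circles) and WT libraries (squares), with bars at the group means. For each gene but Rpa2, the values of KO and WT libraries overlap, and 1 library of a group sits among those of the other.

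The other core genes lay between. Fancg averaged 8.98 ± 1.42 FPKM in KO and 9.74 ± 3.83 in WT (SD, n = 3), Fancb 2.77 ± 0.373 and 2.8 ± 2.02, and Fancc 2.94 ± 1.77 and 2.75 ± 1.44. Their limma adjusted p were 0.951 or more. Ube2t, the E2 that passes ubiquitin to FANCD2 through FANCL, measured 7.27, 4.75 and 5.95 FPKM in KO and 7.59, 8.91 and 7.01 FPKM in WT, with a log2 change of -0.35 and an interval of -0.94 to 0.24. Fanca, a scaffold subunit, and Fancm, a translocase that finds the lesion, were under the expression filter, with means of 0.823 and 0.644 FPKM. So were both targets of the ligase. Fanci measured 0.216, 1.41 and 0.79 FPKM in KO and 1.12, 1.43 and 0.852 FPKM in WT, and Fancd2 0.299, 1.34 and 1.19 FPKM in KO and 0.705, 0.668 and 0.566 FPKM in WT. KO library 1 was the lowest of the 6 for each of this pair. Within the pathway the summed FPKM of the 9 core and E2 genes averaged 44.5 ± 4.65 in KO and 45.5 ± 10.6 in WT (SD, n = 3).

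Among the motors and the enzymes that untangle joined strands, Rad54l, a DNA motor of recombination, was the highest at 10.2, 6.46 and 7.34 FPKM in KO and 6.01, 4.9 and 6.8 FPKM in WT. The interval of Rad54l was -0.25 to 0.99. Of its exon bases 15.4% are exon of Lrrc41 on the opposite strand, which measured 8.8, 10.6 and 15.7 FPKM in KO and 17.3, 17.2 and 14.8 FPKM in WT. Mus81 and Eme1 encode a nuclease pair that cuts joined molecules. Mus81 averaged 5.75 ± 1.37 FPKM in KO and 6.42 ± 1.59 in WT (SD, n = 3), and Eme1 6.86 ± 2.44 and 4.71 ± 2.21. The helicase gene Blm, mutated in Bloom syndrome, measured 1.4, 1.55 and 5.21 FPKM in KO and 1.15, 2.23 and 2 FPKM in WT, and KO library 3 stood apart from the other 5. Wrn, the helicase gene of Werner syndrome, averaged 1.67 ± 0.163 FPKM in KO and 2.67 ± 1.44 in WT. The limma adjusted p of these 5 genes ran from 0.723 to 0.934.

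The checkpoint kinases were the 1 role of 8 whose summed level did not overlap between groups, at 14.4, 13.3 and 14.2 FPKM in KO and 16, 17.1 and 16.3 FPKM in WT. This sum was singled out after its values were seen and is a description. Taken singly, 15.2% of all tested genes had groups that did not overlap. Most of it was Chek2, at 10.8, 6.84 and 8.8 FPKM in KO and 10.4, 10.8 and 9.87 FPKM in WT, where KO library 1 matched the highest WT library. Chek2 had a log2 change of -0.23 and an interval of -0.78 to 0.32. Chek1 measured 2.44, 4.85 and 3.48 FPKM in KO and 3.54, 4.25 and 5.24 FPKM in WT, a log2 change of -0.24 with an interval of -0.96 to 0.49. Atm, at 0.538, 0.811 and 1.29 FPKM in KO and 1.56, 0.957 and 0.839 FPKM in WT, and Atr, at 0.611, 0.844 and 0.658 FPKM in KO and 0.485, 1.04 and 0.349 FPKM in WT, were under the filter. None of the 4 kinase genes had groups apart by itself. In such bulk samples, fewer cells that express a gene and less of its RNA per cell cannot be told apart.

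The replicates of a group often differed more than the groups. The largest WT value was more than 2 times the smallest for 17 of the 37 genes, and the same held in KO for 16. For 20 of the 31 tested genes, or 64.5%, the difference between group means was smaller than the within-group SD, against 63.3% of all tested genes. The median within-group SD was 0.45 for the 26 genes of 1 to 10 FPKM and 0.44 for all tested genes of that level. Set against genes in the same band of level, 3 of the 31 had an SD above the 90th percentile, namely Fancf, Xrcc3 and Fance, and 1, Rbbp8, had one below the 10th. Fancf and Fance, which had the largest changes of the 31 in log2(FPKM + 1), were thus also among the most variable between replicates. The genes had a median of 471 reads per library, which by counting alone gives a median SD of 0.07 in log2. The chi-square of reads between replicates, divided by its degrees of freedom, was 15.3 to 180 over the 37 genes, where counting alone gives about 1. The reads carry no molecular identifiers, so the SD of 0.07 covers the counting of reads only, not of molecules. The chi-square takes in variation between replicates of whatever source.

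**Figure D5:**
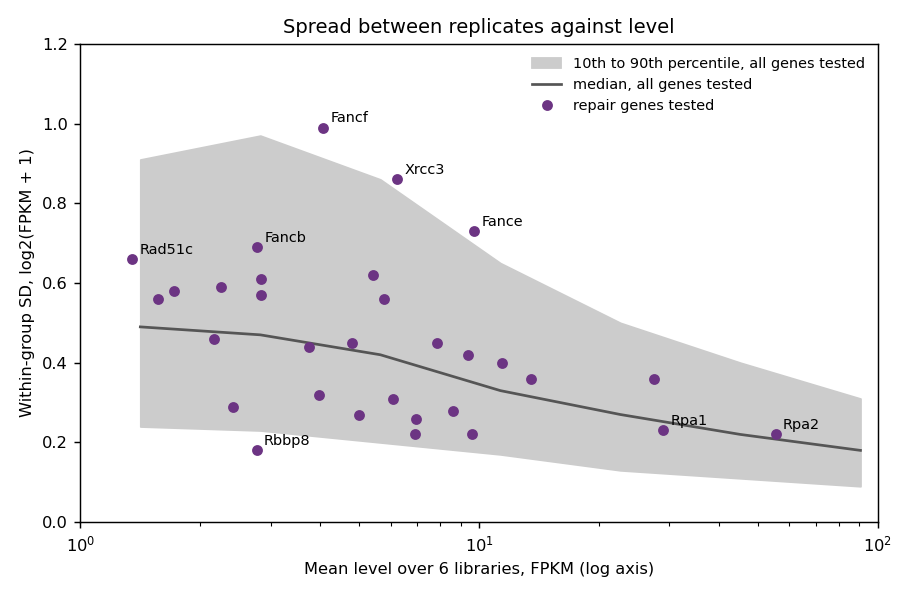
Within-group SD in log2(FPKM + 1) (vertical axis) against mean level in FPKM (horizontal log axis) for the 31 tested repair genes, over the median and the 10th to 90th percentile of all tested genes in bands of level. Most of the genes lie inside the band, with Fancf, Xrcc3 and Fance above it.

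Of 78 further genes of recombination, crosslink repair and checkpoint signalling, 76 were in the table and 72 were tested, and 0 passed. At an unadjusted limma p of 0.05, 4 were higher in KO and 2 lower, or 8.33% against 9.2% of all tested genes, and the median log2 change was 0.030. The groups did not overlap for 13, or 18.1%, against 15.2%, with 9 higher in KO and 4 lower. The 4 genes of smallest p follow. Hus1, Rad9a and Rad1 encode the subunits of a clamp that is loaded at damaged DNA to switch on ATR. Hus1 measured 1.88, 2.06 and 3.81 FPKM in KO and 10.7, 6.12 and 6.18 FPKM in WT, a log2 change of -1.28 ± 0.34 (SE, limma adjusted p = 0.267). Rad9a measured 24.9, 14.4 and 18.4 FPKM in KO and 13.2, 12.4 and 10.1 FPKM in WT, a log2 change of 0.63 ± 0.24 (limma adjusted p = 0.492). Rad1, named after its values were seen, measured 7.05, 7.25 and 6.95 FPKM in KO and 4.56, 4.35 and 5.73 FPKM in WT, a log2 change of 0.47 ± 0.25 (limma adjusted p = 0.617). For each of these 3 genes the groups did not overlap, with Hus1 lower in KO and Rad9a and Rad1 higher. Usp1, which removes ubiquitin from FANCD2, measured 22, 27.4 and 19.5 FPKM in KO and 8.29, 17.4 and 10.2 FPKM in WT (limma adjusted p = 0.336). Wee1, the kinase that holds back entry into mitosis, measured 26.9, 36.5 and 27.7 FPKM in KO and 21, 20.8 and 16.6 FPKM in WT (limma adjusted p = 0.367). The groups of both genes were apart, and in each case the test over all genes was not passed.

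Because many of these genes follow the cell cycle, 26 genes of proliferation were set beside them. All 26 were tested, and the median of their mean levels was 28.9 FPKM, against 7.85 FPKM over all tested genes. Of these 26, 0 passed, and their median log2 change was 0.048. The groups were apart for 4 of them, or 15.4%, against 15.2% of all tested genes, with 3 higher and 1 lower in KO. The proliferation marker Mki67 measured 12.3, 10.9 and 12.3 FPKM in KO and 8.76, 10.7 and 11.3 FPKM in WT, which overlapped. At an unadjusted limma p of 0.05 there were 2, or 7.69% against 9.2% of all tested genes, both higher in KO and with groups apart. Ccne1, the cyclin of entry into S phase, measured 12, 8.5 and 8.17 FPKM in KO and 1.08, 2.32 and 5.24 FPKM in WT (limma adjusted p = 0.248). Rrm2, a subunit of the enzyme that makes DNA precursors, measured 52.5, 57.5 and 59.4 FPKM in KO and 42.3, 35 and 40.7 FPKM in WT (limma adjusted p = 0.285). Mcm4, of the replicative helicase, stood at 37.4, 33.9 and 38 FPKM in KO and 29.6, 28.9 and 32.9 FPKM in WT (limma adjusted p = 0.649). Mcm7, of the same helicase, was the gene apart in the other direction, at 17.4, 15.9 and 17.9 FPKM in KO and 20.6, 19.5 and 21.6 FPKM in WT (limma adjusted p = 0.701). The part of cell cycle state in the levels of the repair genes was not tested.

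In the libraries as a whole, the reads behind the FPKM numbered 18963360 to 25709654 in KO and 18059307 to 18909208 in WT. Zcchc8 itself measured 10.4, 5.54 and 5.92 FPKM in KO and 8.93, 5.24 and 5.16 FPKM in WT. By value it was not lower in KO, with a log2 change of 0.15 and an interval of -0.60 to 0.89. How the knockout was made is not stated, and 1 value per gene cannot show the loss of single exons. The loss of Zcchc8 was thus not seen in these data, and all directions are those of the libraries labelled KO. Of 10 markers of long-term stem cells all were in the table, with a summed level of 260 to 298 FPKM in KO and 284 to 327 in WT. Ly6a was the highest of them and overlapped between groups, and without it the sums were 118 to 140 FPKM in KO and 168 to 182 in WT. By value 7 of the 10 were lower in KO, and 5, Hlf, Procr, Kit, Hoxb5 and Meis1, had groups apart and a limma unadjusted p under 0.05, but 0 passed the adjusted test. Of all tested genes, 15.2% had groups apart and 9.2% had a limma unadjusted p under 0.05, in either direction. Markers of other blood cells differed between the groups. The eosinophil list (4 of 6 listed genes in the table) summed to 161 to 205 FPKM in KO and 0.116 to 1.02 in WT, and the erythroid list (7 of 7) to 422 to 449 and 102 to 131. The B cell list (7 of 7) summed to 82.1 to 117 FPKM in KO and 809 to 926 in WT, where most of the WT sum was Igkc, at 0, 0 and 1.35 FPKM in KO and 774, 746 and 866 FPKM in WT. Without Igkc the B cell sums were 82.1 to 116 FPKM in KO and 60.6 to 69.4 in WT, and 4 of the 6 tested genes, Cd79a, Ighm, Vpreb1 and Vpreb3, were higher in KO with groups apart. The T and NK list (4 of 6) summed to 348 to 392 FPKM in KO and 194 to 238 in WT, and the neutrophil list (7 of 7) to 3593 to 4008 and 2687 to 2892. Of the neutrophil genes 4 were higher in KO with groups apart, and S100a9 passed the test, while Mpo was lower, at 55.2, 48.1 and 46.4 FPKM in KO and 64.4, 66.1 and 72.1 FPKM in WT. Also past the adjusted test and higher in KO were the 4 eosinophil genes and 4 of the 6 tested erythroid genes. Gzmb, of the T and NK list, passed it higher in KO too, and Igkc passed it lower in KO. Of all tested genes, 0.228% passed. The part of these markers in the levels of the repair genes was not tested.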

How the data were processed

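Polyadenylated RNA was measured in 6 libraries, 3 KO and 3 WT, with groups and replicate numbers from the titles. The authors deposited FPKM per gene symbol in 1 table of 6 columns. Per the submitters' processing notes, the tools were fastp, Bowtie2 and featureCounts and the build mm10; versions, strand use and the treatment of multiply matched reads are not stated there, so levels of genes that overlap on opposite strands are uncertain. Members with the largest such shares of exon bases were Fancc (18.6%), Fanci (16%), Rad54l (15.4%), Fancf (15%) and Fancl (13.7%). Eme1 (10.7%) and Fanca (10.5%) followed. Of the 14986 symbols, 14985 are above 0 in at least 4 libraries.

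Symbols were matched to GENCODE M21 (GRCm38, the assembly of mm10) for 14671 genes (97.9%). In each library FPKM times exon length came in even steps, the worth of a single read; 98% of values below 100 reads came out whole within 0.05, which gave reads. KO was compared with WT in limma 3.58.1 (R 4.3.3) on log2(FPKM + 1), with a variance trend, two-sided, and Benjamini-Hochberg adjustment over the 11837 genes of mean FPKM of at least 1. Exact permutation tests used scipy 1.17.1. The fit was tested on simulated data with independent normal noise around gene means, as a check of the code on which no result here rests. The members and lists were chosen with earlier results of these data known. An item of the wider list is not reported here. Values in every library are given for members at an unadjusted p under 0.05, with groups apart or highest in their role, for the 4 genes of smallest p in the wider list, and for Mki67 and the 3 of smallest p in the proliferation list; other members are given by value, and Fancl, Rad51c, Rad1, Mcm7 and the markers named were drawn out after their values were seen. Alternatives changed the pseudocount, filter, scaling, variance model, block and libraries.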

Additional observations from a re-analysis of the deposited data

How the results depend on the processing

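None of the 37 genes passed an adjusted p of 0.05 in any of the 16 other settings that fitted it. The same held for the 72 tested genes of the wider list, and the lowest adjusted p of a member was 0.141. Members under the expression filter, 6 of the 37, were fitted only in the setting without a filter. Of the 31 tested genes, 16 kept their sign wherever they were fitted, 10 in all 16 settings and 6, which fell out at a mean FPKM of at least 5, in 15; among the 16 were Rpa2 (0.26 to 0.50), Fance (-1.60 to -0.72), Fancf (0.74 to 3.89) and Rad51c (-4.28 to -0.34). Fancf and Rad51c, fitted in 15, each have a library at 0, so the pseudocount and the voom fit set the size of the change. Calls over all genes were 27, and 8 without the variance trend, 8 by voom on recovered reads and 11 with the replicate block; without KO library 1, 2 or 3 they were 19, 13 and 11, and without WT library 1, 2 or 3 they were 13, 13 and 11. The cause was not tested. Members at an unadjusted limma p under 0.05 were 3, and 1 with a mean FPKM of at least 5 or without the variance trend. They ranged from 0, without KO library 2 or WT library 1, to 3, and were not always the same genes. Of the 16 other settings, Fance was under 0.05 in 9, Rpa2 in 4, and Rpa3 and Fancl in 1 each. Of the 15 that fitted them, Fancf was under it in 11 and Rad51c in 5. The median of the members, 0.029, was -0.004 under TPM and -0.025 without KO library 1.

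Deviations from group means correlated at 0.0235, 0.0071 and 0.00369 between same-numbered KO and WT libraries. Between differently numbered ones the correlations ran from -0.0157 to 0.00885. Values this small do not show whether same-numbered libraries shared a batch, and the replicate block changed no call of a member. With 3 libraries a group and amplified cDNA, the 95% interval of a member of 1 to 10 FPKM reached a median of 0.86 in log2 to either side, and estimates as large as 1.67 for Fancf and -1.08 for Fance did not pass the adjusted test.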
